A study of Rattus norvegicus with 12 samples.

Results

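The genes described here encode the proteins of the cytosolic and the mitochondrial ribosome. They were measured on whole-genome expression arrays of long bone from female rats. Members were found by symbol alone: a gene counted as cytosolic where its symbol began with Rps or Rpl followed by a digit or p (S6 kinases left out), and as mitochondrial where it began with Mrps or Mrpl followed by a digit. This gave 122 of the 14217 genes tested, 49 of them cytosolic and 73 mitochondrial, read by 54 and 97 probe sets. None of the measured values entered this rule, which was set with earlier results of these data known.

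All animals were female Sprague-Dawley rats killed on postnatal day 81. STBB OVX rats received 10% blueberry powder (BB) in the diet between postnatal days 20 and 34, then the casein control diet, and were ovariectomized (OVX) on day 60. LTBB OVX rats received the BB diet from day 20 until sacrifice and were ovariectomized on the same day. OVX rats had the casein control diet and ovariectomy, and sham rats the casein control diet and a sham operation, 3 weeks before sacrifice. Each group had 3 arrays, and each array held RNA pooled from 2 to 3 rats, so the error below is the spread between pools. No group combined a BB diet with a sham operation. The labels name femur as the tissue, whereas the methods of the study name the right tibia. The log2 values are relative to each probe set's own median over the 12 arrays, so that 0 is the middle array for that gene, and levels of different genes cannot be set against each other. The 3rd sham pool stood apart somewhat from the others of its group. Over all genes its root mean square log2 distance from the other 2 sham pools was 0.31 and 0.29, against 0.16 to 0.24 for the other pairs of pools within a group.

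A ribosome joins amino acids into protein and is built from a small and a large subunit, each of ribosomal RNA and many proteins. The cytosolic ribosome translates most messenger RNAs of the cell, and its proteins are made in balanced amounts, most of all in growing and secreting cells. Its messages often start with a run of pyrimidines, the terminal oligopyrimidine tract, through which growth signalling controls their translation. The mitochondrial ribosome translates only the few proteins encoded in mitochondrial DNA, all parts of the respiratory chain. Some of its proteins have a counterpart in bacterial ribosomes and others are found only in mitochondria.

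Short stretches around the start of transcription are printed for 9 members, 40 bases before and 20 after the start as RefSeq annotates it on GRCr8. They are the start windows of risers with a tract, of a member with a tract and a difference near 0, of the 2 paralogues with the largest changes, and of a falling mitochondrial gene. A C within 5 bases of the start with 5 or more pyrimidines after it is in capitals.
Rpl19, chr10:83519024-83519083, plus strand: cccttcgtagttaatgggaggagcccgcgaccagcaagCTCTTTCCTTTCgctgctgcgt
Rpl35, chr3:43165902-43165961, minus strand: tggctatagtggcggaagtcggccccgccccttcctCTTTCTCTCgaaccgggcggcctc
Rplp0, chr12:46718371-46718430, minus strand: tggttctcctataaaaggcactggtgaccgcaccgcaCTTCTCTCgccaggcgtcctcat
Rps15, chr7:10068096-10068155, minus strand: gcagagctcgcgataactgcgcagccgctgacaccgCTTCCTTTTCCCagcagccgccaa
Rps24, chr16:96477-96536, plus strand: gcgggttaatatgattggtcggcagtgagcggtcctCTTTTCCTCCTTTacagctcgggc
Rpl35a, chr11:81235002-81235061, minus strand: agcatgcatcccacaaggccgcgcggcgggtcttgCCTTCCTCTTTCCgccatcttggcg
Rpl3l, chr10:14258406-14258465, plus strand: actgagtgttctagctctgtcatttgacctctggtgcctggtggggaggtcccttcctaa
Rpl39l1, chr10:5966602-5966661, minus strand: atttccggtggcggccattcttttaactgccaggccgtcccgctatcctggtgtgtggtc
Mrps9, chr9:52605638-52605697, plus strand: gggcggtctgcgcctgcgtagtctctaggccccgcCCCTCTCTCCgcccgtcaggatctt

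A RefSeq window was found for 40 of the 49 cytosolic and 59 of the 73 mitochondrial members. Of these, 47.5% of the cytosolic windows (19 of 40) and 10.2% of the mitochondrial ones (6 of 59) held a tract on the transcribed strand, against 9.3% of the windows of all 11700 genes with an entry. The stretches in capitals run from 8 bases in Rplp0 to 13 in Rps24 and Rpl35a. Capitals begin within 5 bases of the start, so pyrimidine runs that begin earlier, as in Rpl35 and Rps24, are longer than marked. The match describes the letters only, and a window without a tract may reflect where the start is annotated.

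The first comparison asked how the ribosomal protein genes of ovariectomized bone stood against those of sham-operated bone. In OVX, the medians of the cytosolic and the mitochondrial genes lay on opposite sides of 0, with members of both sets on either side. Of the 49 cytosolic genes, 17 were higher and 4 lower, with a median log2 difference of 0.16, whereas of the 73 mitochondrial genes 10 were higher and 33 lower, with a median of -0.18 (limma, Benjamini-Hochberg adjusted p under 0.05 over all genes). Over all 14217 genes the median was 0.0047, and 30.3% were higher and 28.6% lower. The share of cytosolic genes that rose, 34.7%, was thus close to that of all genes, while the share that fell was 8.16%. For the mitochondrial genes the shares were 13.7% higher and 45.2% lower. Differences spread less than those of all genes, whose log2 differences had a standard deviation of 0.92. Over all 49 cytosolic genes it was 0.65, and over the mitochondrial genes 0.37. Without 8 paralogue and pseudogene entries, described separately, it was 0.15 for the 41 cytosolic subunit genes. No entries were left out of all genes. In either direction, 58.9% of the mitochondrial genes were called, as were 58.9% of all genes. The plot of cumulative distributions shows the order of the 3 curves.

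**Figure D1:**
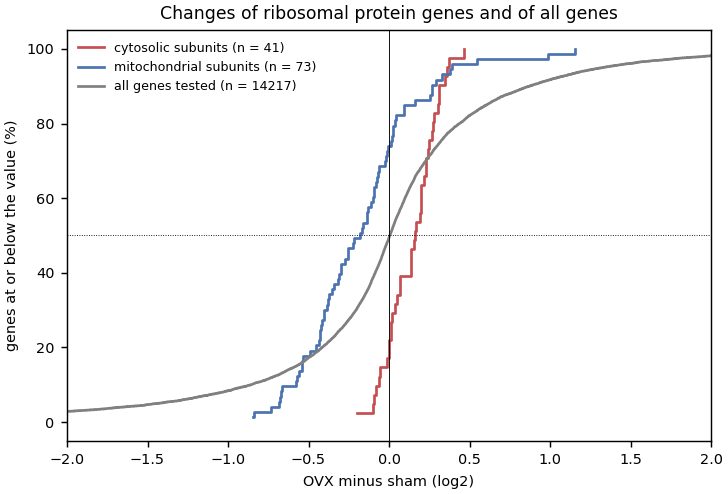
Share of genes (vertical axis, %) whose OVX minus sham log2 difference (horizontal axis) is at or below a value, for 41 cytosolic subunit genes, 73 mitochondrial subunit genes and all 14217 genes. The mitochondrial curve crosses 50% at -0.18 and the cytosolic one at 0.16, and both are steeper than the curve of all genes, whose tails run beyond the axis.

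The cytosolic difference rested in large part on a single sham array. Averaged over the 41 cytosolic subunit genes, the OVX pools stood at 0.011, 0.0078 and 0.020, and the sham pools at -0.024, -0.063 and -0.30. The 3rd sham pool was therefore far below the other two, which lay just under the OVX pools. It was the lowest of all 12 arrays for 34 of the 41 genes, against 2841 of all 14217 genes, and the lowest of the 3 sham pools for 38. Without it the median over the 49 cytosolic genes was 0.067, with 14 genes higher and 6 lower. The 73 mitochondrial genes showed no such split. Their mean was -0.024, 0.020 and -0.016 in the OVX pools and 0.15, 0.15 and 0.21 in the sham pools. Without the 3rd sham pool 10 were higher and 34 lower, with a median of -0.15. The shares of all genes called without that pool are not given here, for these counts or for those below.

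**Figure D2:**
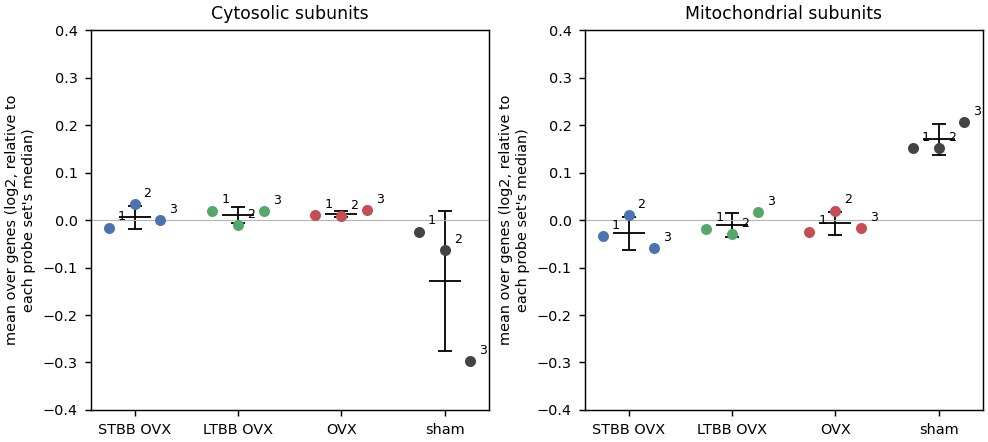
Mean log2 value over 41 cytosolic (left) and 73 mitochondrial (right) subunit genes in each pool, by group, with pool numbers beside the points. Bars are the group mean ± SD of 3 pools. On the left the 3rd sham pool, at -0.30, lies far below the other 11 pools, and on the right all 3 sham pools lie above the 9 ovariectomized pools.

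Markers of cell types differed between OVX and sham as well. All 15 skeletal muscle markers were lower in OVX, with a median log2 difference of -6.26, and so were 9 of 10 erythroid and 5 of 5 neutrophil markers. The 8 osteoblast, 5 osteoclast and 8 of 9 cartilage markers were higher, with medians of 2.63, 3.43 and 5.09. The mean of the muscle list was -2.61, -1.34 and -3.14 in the OVX pools and 3.51, 3.58 and 4.37 in the sham pools, highest in the 3rd sham pool, and that of the neutrophil list was -0.29, 0.034 and -0.31 in OVX and 3.01, 2.72 and 2.47 in sham, lowest in that pool. Whether the ribosomal protein differences followed these markers was not tested. In RNA of whole tissue, fewer cells of a type cannot be told apart from less RNA per cell.

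Among the 41 cytosolic subunit genes 15 rose and 1 fell, by at most 0.47 on the log2 scale. Without the 3rd sham pool 12 of them rose and 3 fell. Rpl11, which with Rpl5 and 5S RNA forms a particle that also binds the p53 regulator Mdm2, stood at 0.042, 0.0052 and 0.075 in the OVX pools and -0.31, -0.26 and -0.71 in the sham pools. Its log2 difference was 0.47 (SE 0.099, adjusted p = 0.0012, limma), the highest among the 41, and 0.32 without the 3rd sham pool. The OVX pools lay above every sham pool. Rpl5 itself stood at 0.0015, 0.0055 and -0.0083 in OVX and -0.13, -0.15 and -0.55 in sham. Its difference of 0.28 (SE 0.094, adjusted p = 0.023) shrank to 0.14 (adjusted p = 0.044) without the 3rd sham pool, and its call was lost when any 1 of the OVX pools was left out.

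Rpl19, a protein of the large subunit near the exit of the nascent chain, stood at 0.0057, -0.028 and 0.040 in OVX pools and -0.26, -0.27 and -0.57 in sham pools, a difference of 0.37 (SE 0.081, adjusted p = 0.0015). Rpl35, which lies by the same exit, stood at 0.055, 0.021 and 0.045 in OVX pools and -0.21, -0.22 and -0.54 in sham pools, a difference of 0.36 (SE 0.084). Both groups of pools were apart in both genes, and without the 3rd sham pool the differences were 0.27 and 0.25. Rpl6, also of the large subunit, differed by 0.35 (SE 0.11, adjusted p = 0.012), and by 0.20 without that pool.

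The P stalk recruits the elongation factors to the large subunit, and only its base protein Rplp0 was measured among its 3 genes. Rplp0 stood at 0.062, -0.049 and 0.017 in OVX and -0.12, -0.19 and -0.46 in sham, a difference of 0.27 (SE 0.082, adjusted p = 0.014) with the pools apart, and of 0.16 (adjusted p = 0.038) without the 3rd sham pool. Rps15, a protein of the small subunit head, had a difference of 0.30 (SE 0.091), and of 0.18 without that pool, and was named after its value was seen. Rps16, another protein of the head, was the only one of the 41 that fell when all arrays were used. It stood at -0.050, -0.046 and 0.0031 in OVX and 0.22, 0.22 and 0.070 in sham, a difference of -0.20 (SE 0.065, adjusted p = 0.017), and its call was lost without the 1st or 2nd sham pool or the 1st OVX pool.

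By subunit, 3 of 15 small subunit genes were higher and 1 lower, with a median of 0.066, and 14 of 34 large subunit genes were higher and 3 lower, with a median of 0.18. Without the 3rd sham pool these medians were 0.011 and 0.10. The difference between subunits was not tested. Pools of OVX and sham did not overlap for 26 of the 49 cytosolic genes, 22 of them higher in OVX, against 61.2% of all genes not overlapping in either direction. Of the 21 cytosolic genes called, 15 kept their call and direction whichever array was left out, 13 higher and 2 lower. The calls of Rpl27, Rpl34 and Rpl37a were lost without the 3rd sham pool (Rpl34 and Rpl37a named after their values were seen). They did not hang on that pool alone. With arrays left out in turn, the call of Rpl34 was lost for 9 arrays, that of Rpl37a for 4 and that of Rpl27 for 3. The 2 measured proteins of the small subunit with other names did not pass, Rpsa (the laminin receptor) with an adjusted p of 0.95 and Rack1 with 0.66.

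**Figure D3:**
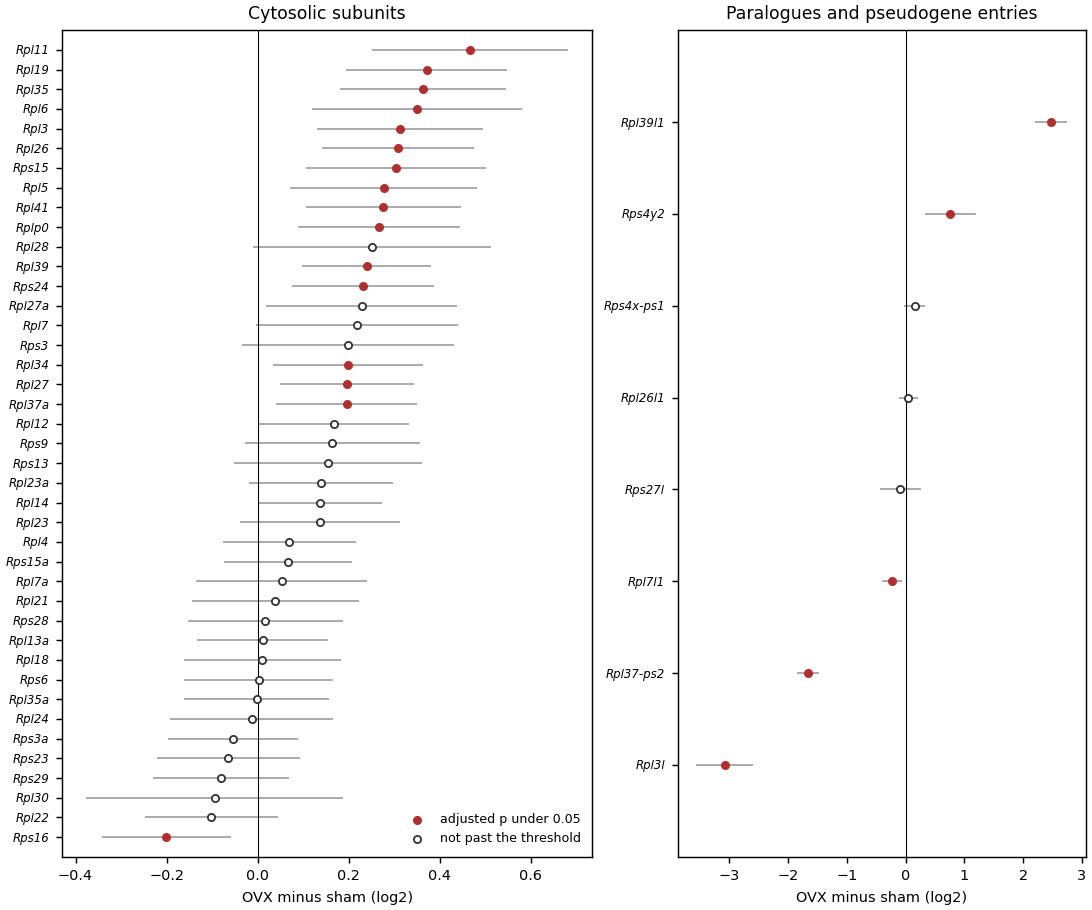
OVX minus sham log2 difference of each cytosolic gene with its 95% interval from limma, for 41 subunit genes (left) and 8 paralogue and pseudogene entries (right, wider scale). Red points passed an adjusted p of 0.05. On the left all but Rps16 of the red points lie between 0.20 and 0.47, and on the right Rpl39l1 at 2.48 and Rpl3l at -3.07 stand far outside that range.

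The largest changes belonged to paralogues and a pseudogene entry and not to the common subunits. Rpl3l, which takes the place of Rpl3 in ribosomes of skeletal and heart muscle, stood at -0.42, -0.21 and -0.12 in the OVX pools and 2.43, 2.60 and 3.44 in the sham pools. The groups were far apart, with a log2 difference of -3.07 (SE 0.22, adjusted p = 7.87e-08, limma), an 8.42-fold lower level in OVX. It was highest in the 3rd sham pool, as the mean of the muscle list was. Among the OVX pools it was highest in the 3rd, where the muscle list was lowest. Over the LTBB OVX pools its order was that of the muscle list, and over the STBB OVX pools it was the reverse. The part of muscle in the difference between OVX and sham was not tested. Msrb1, whose gene lies within 1000 bases of Rpl3l, was lower too, by -1.59. The parent gene Rpl3 stood at -0.015, 0.032 and 0.017 in OVX pools and -0.17, -0.21 and -0.52 in sham pools, a difference of 0.31 (SE 0.084, adjusted p = 0.0060), and of 0.20 without the 3rd sham pool. Parent and paralogue thus differed from sham in opposite directions.

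Rpl39l1, named as a gene like Rpl39, rose most among all 49. It stood at 0.24, -0.21 and 0.035 in OVX pools and -2.30, -2.38 and -2.68 in sham pools, a difference of 2.48 (SE 0.13, adjusted p = 2.84e-09), or 5.56-fold higher in OVX. Rpl39 itself, at the wall of the exit tunnel, stood at -0.093, 0.029 and -0.0078 in OVX and -0.24, -0.25 and -0.30 in sham, a difference of 0.24 (SE 0.065, adjusted p = 0.0066). Here the 3rd sham pool was close to the other two, and the difference without it was 0.22.

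The 6 other such entries varied. Rpl37-ps2, annotated as a pseudogene, stood at -0.11, -0.037 and -0.13 in OVX and 1.58, 1.43 and 1.70 in sham, a difference of -1.66 (SE 0.085, adjusted p = 2.96e-09), and which transcript its probe set reads was not tested. Rps4y2, a copy of the Rps4 family that RefSeq places on chromosome 4, stood at 0.13, 0.30 and 0.51 in OVX and -0.17, -0.29 and -0.88 in sham, a difference of 0.76 (SE 0.20, adjusted p = 0.0055), and of 0.54 without the 3rd sham pool. It overlaps Tmtc1, which differed by -0.13 and did not pass. Rpl7l1, an assembly factor related to Rpl7, differed by -0.23 (SE 0.076, adjusted p = 0.018), but its 2 probe sets read -0.57 and 0.10 and the call was lost without the 1st or 2nd sham pool or the 2nd or 3rd OVX pool. Its parent Rpl7 differed by 0.22 and did not pass (adjusted p = 0.085). Rpl26l1 (0.042), Rps27l (-0.092) and Rps4x-ps1 (0.16) did not pass.

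Loss of a single copy of certain ribosomal protein genes causes Diamond-Blackfan anaemia in humans, a failure of red cell formation. Of 18 genes listed, 10 were measured, and 6 of them were higher in OVX and none lower, with a median of 0.21, or 0.14 without the 3rd sham pool, where 5 were higher. Of all genes 30.3% were higher and 28.6% lower, and the share of the list that was called was close to that of all genes. Besides Rpl11, Rpl5 and Rpl35 the 6 higher genes were Rps24 (0.23, SE 0.072), Rpl26 (0.31, SE 0.077) and Rpl27 (0.20, SE 0.067, lost without the 3rd sham pool or the 2nd or 3rd OVX pool). The 2 probe sets of Rps24 read 0.043 and 0.42, and in a fit of single probe sets only the latter passed. Rps28, Rps29, Rpl18 and Rpl35a had differences of 0.017, -0.081, 0.010 and -0.0026 and did not pass. Rpl35a stood at 0.0012, -0.0012 and -0.018 in OVX and 0.15, -0.015 and -0.14 in sham, so that the sham pools lay on both sides of OVX. The erythroid markers, at a median difference of -2.73, ran the other way, and their part in these values was not tested.

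The genes with and without a start tract were set side by side. The 19 cytosolic genes with a tract had a median of 0.17, 7 higher and 0 lower. The 21 without one had a median of 0.052, 8 higher and 3 lower. Paralogues are mixed in, with Rps4y2 (0.76) among the genes with a tract. Those without one include Rpl39l1 (2.48), Rpl26l1 (0.042), Rps27l (-0.092), and Rpl3l (-3.07) and Rpl7l1 (-0.23), both called lower. Medians without the paralogues are not given here, and the difference was not tested. Over all genes with a window, the 1086 with a tract had a median of 0.009, 318 higher and 307 lower, and the 10614 without one a median of 0.002, 3187 higher and 3060 lower. The share of cytosolic genes that rose was also about the same with a tract as without one. Rpl19, Rpl35, Rplp0, Rps15 and Rps24 rose, the probe sets of Rps24 by 0.043 and 0.42, while Rpl35a, with a tract of 13 bases, differed by -0.0026. The letters CTTCCG, searched on both strands of the 300 bases around the start, were in 45.0% of cytosolic, 52.5% of mitochondrial and 27.0% of all windows, and AAGATGGC in 4 of 40 cytosolic, 14 of 59 mitochondrial and 4.7% of all windows.

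More genes of the mitochondrial ribosome were lower than higher in OVX, and 30 of the 73 were not called. Of 46 large subunit genes 7 were higher and 22 lower, with a median of -0.26, and of 27 small subunit genes 3 were higher and 11 lower, with a median of -0.13. Among the 43 genes whose protein has a bacterial counterpart, 7 were higher and 22 lower, with a median of -0.26. Among the 30 found only in mitochondria, 3 were higher and 11 lower, with a median of -0.15. Of all genes, 30.3% were higher and 28.6% lower. The differences between these lists were not tested. The pools did not overlap for 46 of the 73 genes, 11 higher and 35 lower in OVX, a share close to the 61.2% of all genes. Of the 43 genes called, 39 kept their call and direction whichever array was left out, 8 higher and 31 lower.

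Mrps35, found only in mitochondrial ribosomes, fell most among the mitochondrial genes. It stood at 0.012, -0.012 and -0.12 in OVX pools and 0.78, 0.84 and 0.80 in sham pools, a log2 difference of -0.85 (SE 0.069, adjusted p = 2.37e-07), or 1.80-fold lower in OVX. Mrpl38, also of mitochondria alone, stood at -0.091, 0.18 and 0.00040 in OVX and 0.87, 0.68 and 1.06 in sham, a difference of -0.84 (SE 0.12). Mrpl1, a counterpart of the bacterial L1 stalk protein, stood at 0.038, -0.011 and -0.043 in OVX and 0.71, 0.59 and 0.88 in sham, a difference of -0.73 (SE 0.077). The pools of the 2 groups were well apart in each of these genes.

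Mrps9, the counterpart of bacterial S9, stood at -0.096, -0.024 and -0.066 in OVX and 0.61, 0.55 and 0.66 in sham, a difference of -0.67 (SE 0.061, adjusted p = 6.75e-07) over 2 probe sets. Mrps18b, one of 3 relatives of bacterial S18, fell by 0.68 on the log2 scale (SE 0.090), and Mrpl35, of the large subunit, fell by 0.67 (SE 0.079). The other 2 relatives, Mrps18a and Mrps18c, were lower as well, by -0.40 and -0.38, and were named after their values were seen. Mrpl12, whose protein forms part of the stalk that binds elongation factors, differed by -0.46 (SE 0.079), also named after its value was seen.

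A smaller set went the other way. Mrps6, the counterpart of bacterial S6, stood at 0.069, -0.034 and 0.15 in OVX pools and -1.08, -1.06 and -1.13 in sham pools, a difference of 1.15 (SE 0.074, adjusted p = 2.5e-08), or 2.22-fold higher in OVX. Mrpl52, of mitochondria alone, stood at 0.058, 0.0024 and 0.14 in OVX and -0.95, -0.89 and -0.91 in sham, a difference of 0.99 (SE 0.086). In both genes the 3 sham pools were nearly equal and far below OVX. Both have a neighbour that also rose. Slc5a3, a myo-inositol transporter whose gene overlaps Mrps6, was higher by 0.52 (SE 0.074), and Slc7a7, an amino acid transporter within 1000 bases of Mrpl52, by 1.27 (SE 0.096). Whether the probe sets read transcripts of the neighbours was not tested.

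Mrpl20, the counterpart of bacterial L20, stood at 0.042, 0.12 and -0.040 in OVX and -0.49, -0.49 and -0.52 in sham, a difference of 0.54 (SE 0.064). Mrpl17 and Mrpl23, both with bacterial counterparts, were higher by 0.39 (SE 0.059) and 0.38 (SE 0.060), and Mrps7 by 0.33 (SE 0.079). The large subunit of mitochondria therefore held genes of both directions, from -0.84 to 0.99. Of the 5 subunits with other names, Dap3, a GTP-binding protein of the small subunit, was higher by 0.35 (SE 0.068) and Aurkaip1 by 0.24 (SE 0.065). Gadd45gip1 was lower by -0.24 (SE 0.088, adjusted p = 0.030), and by -0.15, no longer past the threshold, without the 3rd sham pool. Its call was also lost without any 1 of the OVX pools.

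**Figure D4:**
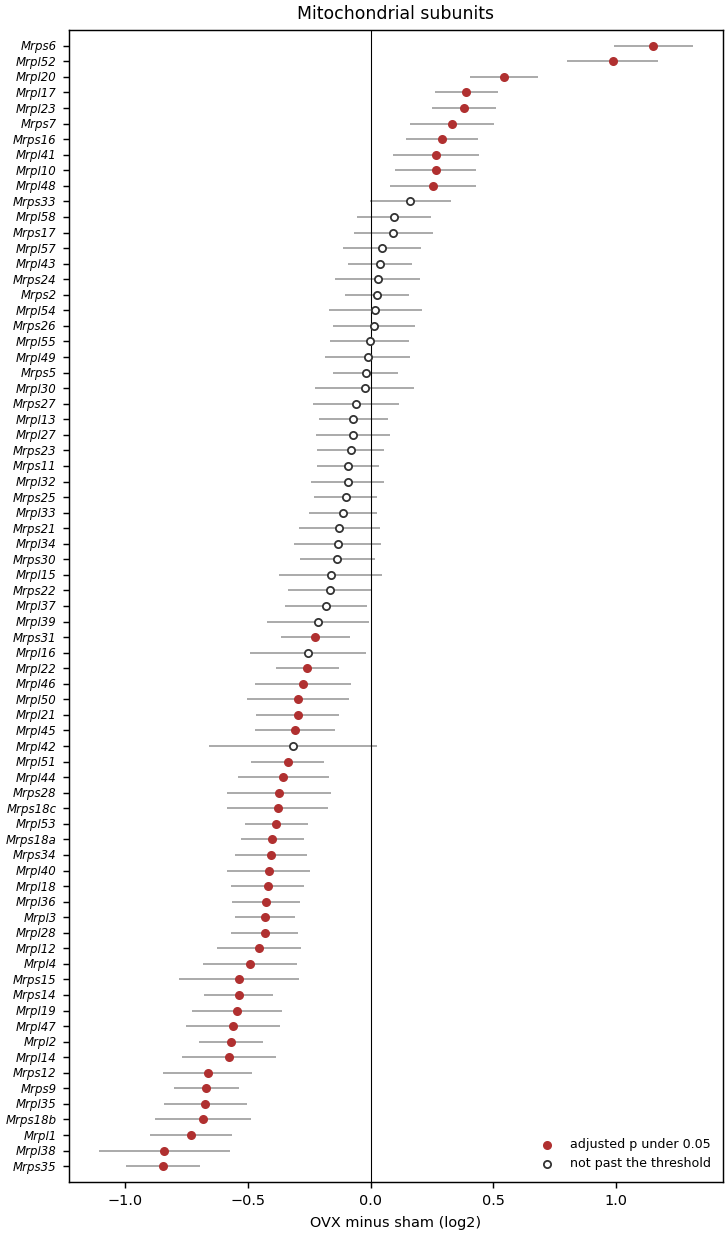
OVX minus sham log2 difference of each of the 73 mitochondrial genes with its 95% interval from limma. Red points passed an adjusted p of 0.05. The 33 red points left of 0 reach -0.85 at Mrps35, and the 10 right of it reach 1.15 at Mrps6.

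Probe sets of one gene did not always read alike. Of 5 cytosolic and 18 mitochondrial genes with several probe sets, 2 and 7 had probe sets of both signs. Rpl14, with readings of -0.31 and 0.58, and Mrps2, with readings between -0.48 and 0.30, had probe sets called in opposite directions, so their means of 0.14 and 0.026 stand for no one transcript. A further 36 probe sets carry several symbols with a cytosolic ribosomal protein among them and were left out. Of these, 11 were higher in OVX and 1 lower, with a median of 0.16 and a range from -0.42 to 0.70. These calls come from a fit of single probe sets, whose share of calls is not given here. Of the genes tested, 30.3% were higher and 28.6% lower. Many common subunits, such as Rpl10, are read only there.

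Genes that act in making ribosomes changed in both directions. Of 57 ribosome assembly factors 7 were higher and 23 lower in OVX, with a median of -0.15, where 30.3% of all genes were higher and 28.6% lower. Heatr1, an assembly factor of the small subunit, stood at -0.088, -0.12 and 0.16 in OVX and between 0.996 and 1.44 in sham, a difference of -1.16 (SE 0.12). Rrs1, which helps to bring in the 5S particle, was lower by -1.10 (SE 0.099) and Ddx56, a helicase, by -0.85 (SE 0.11). So an assembly factor for the 5S particle was lower while its proteins Rpl5 and Rpl11 were higher. Of 12 genes for RNA polymerase I, which transcribes ribosomal RNA, 1 was higher and 3 lower, a smaller share called than among all genes. Polr1b, its second largest subunit, was lower by -0.70 (SE 0.098), Polr1f lower by -0.57 (SE 0.089), and Taf1c, of its initiation factor, higher by 0.58 (SE 0.076).

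Of 34 mitochondrial translation and assembly factors 3 were higher and 14 lower, with a median of -0.14, and 17 were not called, where 28.6% of all genes were lower. Eral1, a GTPase that assembles the mitochondrial small subunit, stood at -0.40, 0.015 and -0.20 in OVX and 2.90, 2.69 and 2.63 in sham, a difference of -2.94 (SE 0.17, adjusted p = 1.15e-08). Mtg1, a GTPase of large subunit assembly, was lower by -0.62 (SE 0.066), and Tfb1m, which methylates the small ribosomal RNA, higher by 0.80 (SE 0.081).

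Factors of cytosolic translation had no common direction. Of 31 initiation factors 5 were higher and 8 lower, fewer in each direction than the shares of all genes, with Eif1ax at -0.89 (SE 0.077), Eif3j at -0.67 (SE 0.11) and Eif2b1 at 0.62 (SE 0.066). Of 12 elongation and release factors 4 were higher and 4 lower, where 30.3% of all genes were higher and 28.6% lower. Eef1a2, the elongation factor form of muscle and nerve, stood at -0.037, 0.0019 and -0.12 in OVX and 0.93, 1.10 and 1.71 in sham, a difference of -1.30 (SE 0.15), highest in the 3rd sham pool as the muscle list was. Eef1e1, a scaffold protein of transfer RNA synthetases, was lower by -1.22 (SE 0.097) and the release factor Gspt1 higher by 0.77 (SE 0.066). Of 17 genes of mTOR and Myc signalling 5 were higher and 4 lower, no larger a share in either direction than among all genes. Maf1, a repressor of RNA polymerase III, differed by -0.96 (SE 0.082) and Ddit4, an inhibitor of mTOR complex activity, by 0.88 (SE 0.11). Mlst8, a subunit of both mTOR complexes, differed by -0.55 (SE 0.095).

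Both BB groups were then set against the same sham pools. In LTBB OVX, 17 cytosolic genes were higher and 4 lower than in sham (median 0.13), and 8 mitochondrial genes were higher and 37 lower (median -0.23), where 29.2% of all genes were higher and 29.1% lower. In STBB OVX, 17 cytosolic genes were higher and 4 lower (median 0.14), and 10 mitochondrial genes were higher and 36 lower (median -0.20), where 29.3% of all genes were higher and 29.0% lower. Without the 3rd sham pool the cytosolic medians were 0.065 in LTBB OVX and 0.042 in STBB OVX. These comparisons share the sham pools with the one above, so the counts are not independent of it. Rpl3l stood at 0.046, -0.046 and -0.079 in STBB OVX pools, at 0.061, -0.49 and 0.16 in LTBB OVX pools and at -0.42, -0.21 and -0.12 in OVX pools. Rpl39l1 stood at 0.070, 0.025 and -0.040 in STBB OVX pools, at 0.089, 0.30 and -0.025 in LTBB OVX pools and at 0.24, -0.21 and 0.035 in OVX pools. In both genes the 9 ovariectomized pools lay together and away from sham.

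The question of the study was whether the BB diets changed bone after ovariectomy. No ribosomal protein gene passed the test between either BB group and OVX, or between the BB groups, as 0% of all genes did in either direction in each of these 3 comparisons (limma, Benjamini-Hochberg). At an unadjusted p under 0.05, the members were 2 cytosolic and 2 mitochondrial genes in LTBB OVX against OVX, 0 and 0 in STBB OVX against OVX, and 1 and 1 in STBB OVX against LTBB OVX, and of all genes 329, 411 and 484. The median difference from OVX was -0.0069 for cytosolic and 0.00022 for mitochondrial genes in LTBB OVX, and -0.0035 and -0.026 in STBB OVX. The 95% interval reached 0.18 to either side of the estimate for the median cytosolic and 0.17 for the median mitochondrial gene. In LTBB OVX against OVX the interval lay inside ±0.3 for 39 of 49 cytosolic and 68 of 73 mitochondrial genes, and in STBB OVX against OVX for 42 and 70.

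The largest differences were those of genes with wide intervals. Rps4y2 stood at -0.37, -0.11 and -0.026 in LTBB OVX and 0.13, 0.30 and 0.51 in OVX, a log2 difference of -0.48 (95% interval -0.92 to -0.041, adjusted p = 1.0, limma). The pools did not overlap, and in STBB OVX the gene was at 0.25, 0.026 and 0.76, higher than LTBB OVX by 0.51 (interval 0.075 to 0.95) and by 0.31 without the 3rd STBB OVX pool. Rps13, a small subunit protein, differed by -0.21 (interval -0.42 to -0.0057) in LTBB OVX and by -0.17 (interval -0.37 to 0.039) in STBB OVX. Rpl3l differed by 0.16 (interval -0.32 to 0.65) in LTBB OVX and by 0.22 (interval -0.26 to 0.71) in STBB OVX. Rpl28, of the large subunit, differed by -0.18 in STBB OVX (interval -0.44 to 0.078).

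Among mitochondrial genes, Mrps25 differed by -0.15 in LTBB OVX (interval -0.28 to -0.018), Mrpl4 by 0.15 (interval -0.046 to 0.34) and Mrps2 by -0.14 (interval -0.27 to -0.010). In STBB OVX, Mrpl38 differed by -0.16 (interval -0.42 to 0.11), Mrps15 by -0.11 (interval -0.36 to 0.13) and Mrpl19 by -0.11 (interval -0.29 to 0.078). Mrps35, named after its value was seen, was lower in STBB OVX than in LTBB OVX by -0.18 (interval -0.33 to -0.028). Where the distance of these mitochondrial genes from sham passed the test, it was larger. Mrps35, for one, was -0.91 from sham in STBB OVX and -0.74 in LTBB OVX. The mean of the muscle markers ran from -0.11 to 0.65 in STBB OVX pools and from -3.14 to -1.34 in OVX pools. No gene was called between these groups, so neither Rpl3l nor any muscle marker was, and the part of muscle was not tested.

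**Figure D5:**
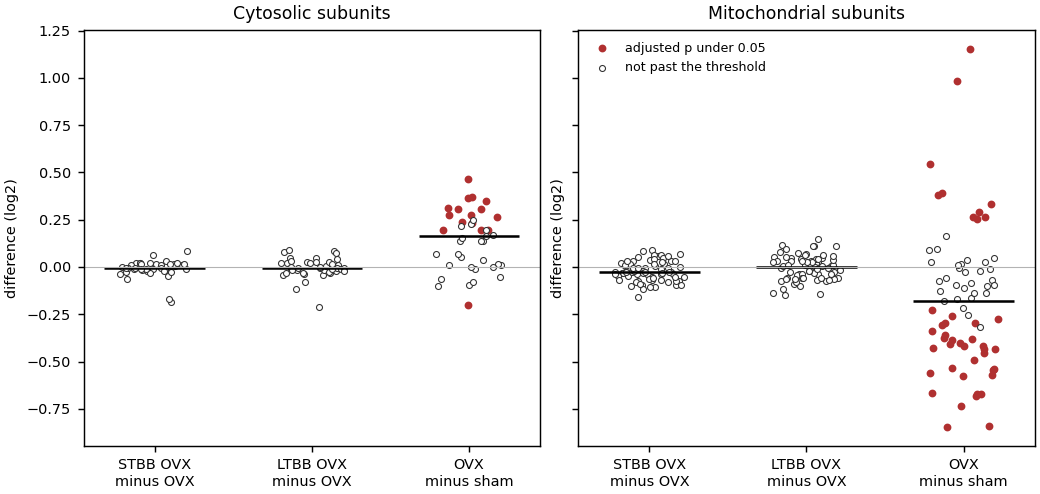
Log2 difference of each of 41 cytosolic (left) and 73 mitochondrial (right) subunit genes in STBB OVX minus OVX, LTBB OVX minus OVX and OVX minus sham, with the median as a line and red points past an adjusted p of 0.05. The points of both diet comparisons lie between -0.21 and 0.15 and none is red, while those of OVX minus sham reach from -0.85 to 1.15.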

How the data were processed

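The authors deposited log2 values of Affymetrix rat genome arrays, 3 per group. Per the study's methods, these came from robust multiarray analysis of the scanned arrays, then a floor on the lowest measurements and normalization of each array and each probe set in GeneSpring, and the submitters' notes name GCOS and RMA (versions not given in the sources used here). Every probe set has a median of 0, so levels, depth and background are lost. The precision of a difference rests on the number of arrays and on the spread between pools. Of 31099 probe sets, 57 controls were left out. GEO's platform annotation gave 20826 probe sets 1 symbol, 436 several and 9780 none. Probe sets of 1 symbol were averaged into 14217 genes, with no filter on dim ones. Symbols were checked by gene ID against RefSeq genes of GRCr8, also used for neighbouring genes and start windows, which are credited to RefSeq.

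limma 3.58.1 in R 4.3.3 fitted 4 group means over 12 arrays, with 6 contrasts, moderated standard errors (SE), 95% intervals and Benjamini-Hochberg adjustment over all genes at 0.05. The fit was tested on simulated data. With 3 pools against 3, an exact permutation test cannot go below 0.10. The labels do not say that pool numbers pair groups, and deviations of pools with the same number correlated at -0.38 to 0.23, so no pairing was used.

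Members and lists were chosen with earlier results of these data known. Named genes were the 6 largest rises and 6 largest falls between OVX and sham in each set among those called with pools apart, the paralogues and their parents, the Diamond-Blackfan, 5S and P stalk genes, the 3 largest differences of each BB group from OVX, and up to 3 called genes of every other list. The B cell and adipocyte marker lists had 0 higher and 2 lower of 4, and 1 higher and 2 lower of 6, between OVX and sham. Alternatives were 1 probe set per gene, a second quantile normalization, median centring, array weights, only the 2 groups compared, a replicate block, a threshold of 0.01, no probe sets ending in _s_at or _x_at, and leaving out each array.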

Additional observations from a re-analysis of the deposited data

How the results depend on the processing

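Medians kept their sign in OVX, LTBB OVX and STBB OVX against sham in both sets under every alternative, and 0 members were called in the 3 diet comparisons under all of them. A second quantile normalization cut calls most. It left 1 cytosolic gene higher and 2 lower in OVX, 3 and 2 in LTBB OVX and 1 and 2 in STBB OVX, and 1 mitochondrial gene higher and 8 lower in OVX, 1 and 8 in LTBB OVX and 2 and 15 in STBB OVX, while calls over all genes in OVX fell to 1537 higher and 1473 lower. The cytosolic median in OVX was then 0.079, and 0.093 with array weights. With only the 2 groups compared, 10 cytosolic genes were higher and 2 lower in OVX, 10 higher in LTBB OVX and 9 higher in STBB OVX. At an adjusted p of 0.01, 9 were higher and 2 lower in OVX, 8 higher in LTBB OVX and 8 higher in STBB OVX. Leaving out each array gave 14 to 20 cytosolic genes higher and 2 to 6 lower in OVX, and 8 to 10 mitochondrial genes higher and 32 to 35 lower. Beyond the quantile normalization, calls over all genes in OVX against sham are not given here. Pool numbers are shared labels without a stated pairing. With a replicate block, 16 cytosolic genes were higher and 4 lower in OVX, and 10 mitochondrial genes higher and 34 lower, and of the 80 gene comparisons examined only the call of Rpl34 was lost. Of these 80, 38 calls were lost under quantile normalization. The cause of these shifts was not tested. With 1 probe set per gene, 1 of the 80 gene comparisons lost its call and 1 gained one, and Rpl14 read -0.31 and Mrps2 -0.48. Signs turned elsewhere only in genes that did not pass. Array weights gave Rps28 -0.028 and Rpl18 -0.022, and Rpsa read -0.027 after quantile normalization and -0.0015 after median centring. Over the single arrays left out, Rps28 ran between -0.075 and 0.069, Rpl18 between -0.081 and 0.077, Rpl35a between -0.072 and 0.073, Rps27l between -0.23 and 0.099, Rpsa between -0.024 and 0.041 and Rack1 between -0.19 and 0.016.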
